A study of Mus musculus with 33 samples.

Results

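Kidneys collected 7 weeks after Adv-IFNα were compared with untreated kidneys in BWF1 mice, the NZB X NZW F1 cross, which develops lupus nephritis. The comparison rests on the 5 arrays labelled week 7 and the 3 arrays labelled untreated, 8 of the 33 arrays of the series, and every gene with a name on the array is a member, 17097 in all. Adv-IFNα is an adenovirus that carries a mouse interferon-alpha gene, and the mice are females that received it intravenously per the study's methods. Each array holds RNA of the kidney of a separate mouse by the design text, and the labels name no litters or experiments, so the p-values measure the spread between single mice only. For the tests of genes that spread is estimated over all 33 arrays of the series, the other weeks included. The untreated mice had the same strain and tissue labels and no virus. No group with an empty virus is labelled, so vector and interferon cannot be told apart here. The labels give neither an age nor a collection week for the untreated mice, and the study's text gives different ages at injection in different places, so no age is stated here. The study calls its controls age-matched, but the labels do not show to which week.

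In lupus nephritis, antibodies to nucleic acids and other self antigens form immune complexes in the glomerulus, the filter of the kidney. These engage complement and the Fc receptors of phagocytes. Type I interferons act through a single receptor on most cells and induce antiviral genes through a promoter element, the interferon-stimulated response element. Downstream of the glomerulus the tubule reclaims water, salts, sugar and amino acids. The proximal tubule does most of this work, is packed with mitochondria, and makes glucose and breaks down amino acids. Injured tubule cells lose these functions and begin to express repair and stress genes.

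The values are log2 intensities, so that a difference of 1 is a 2-fold change, and each gene is represented by its brightest probe set. A gene is said to have risen or fallen where limma's adjusted p (Benjamini-Hochberg, over 45037 probe sets) was below 0.05, and called where the change also exceeded 2-fold. Rises, falls and differences are on this log2 scale and are week 7 means minus untreated means, with their standard error (SE), unless another pair of groups is named. Arrays correlated pairwise at 0.965 to 0.989. Beta-actin probe sets at both ends of its transcript gauge RNA integrity. Their 3′/5′ ratio on the log2 scale was 1.57 ± 0.16 (SD, n = 3) in untreated and 1.98 ± 0.12 (SD, n = 5) in week 7 kidneys, without overlap (difference 0.41, exact two-sided permutation test, p = 0.0357, the smallest this design allows). The Gapdh ratio was 1.51 in both groups (exact two-sided permutation test, p = 0.929). Mean globin signal, a sign of blood content, ranged from 6.10 to 6.97 in untreated and from 3.65 to 7.61 in week 7 kidneys (exact two-sided permutation test, p = 0.429). On arrays of the other treated weeks the beta-actin ratio lay between 1.68 and 2.19, so the higher ratio was not particular to week 7. The part of the beta-actin ratio in the results was not tested beyond a fit that adjusts for it as a covariate, called the beta-actin fit here. Whole kidney was measured, so that fewer cells of a type and less RNA per cell cannot be told apart.

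Of the 17097 genes, 2251 rose (13.2%) and 1168 fell (6.83%), with a median change over all genes of 0.03. Called were 609 genes upward (3.56%) and 208 downward (1.22%), and over all 45037 probe sets 1060 upward (2.35%) and 384 downward (0.853%). The 5 week 7 kidneys lay above all 3 untreated kidneys for 2012 genes (11.8%) and below all 3 for 874 genes (5.11%). Among the called genes such separation held for 537 of the 609 rises and 121 of the 208 falls. The 15 largest rises and 15 largest falls named below were taken from these separated genes. Their lack of overlap was thus fixed by the choice. Changes above 4-fold were 135 upward and 22 downward, and changes above 8-fold were 36 upward and 6 downward. In a model of only these 2 groups the called falls dropped to 127 and the called rises to 524. The beta-actin fit gave more of both, 246 called falls and 780 called rises. With globin signal as a covariate there were fewer of both, 150 called falls and 569 called rises. Falls varied more between the treated mice than rises did. Over the called falls the median SD was 0.69 in week 7 kidneys against 0.20 in untreated kidneys, and over the called rises it was 0.57 against 0.32.

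**Figure D1:**
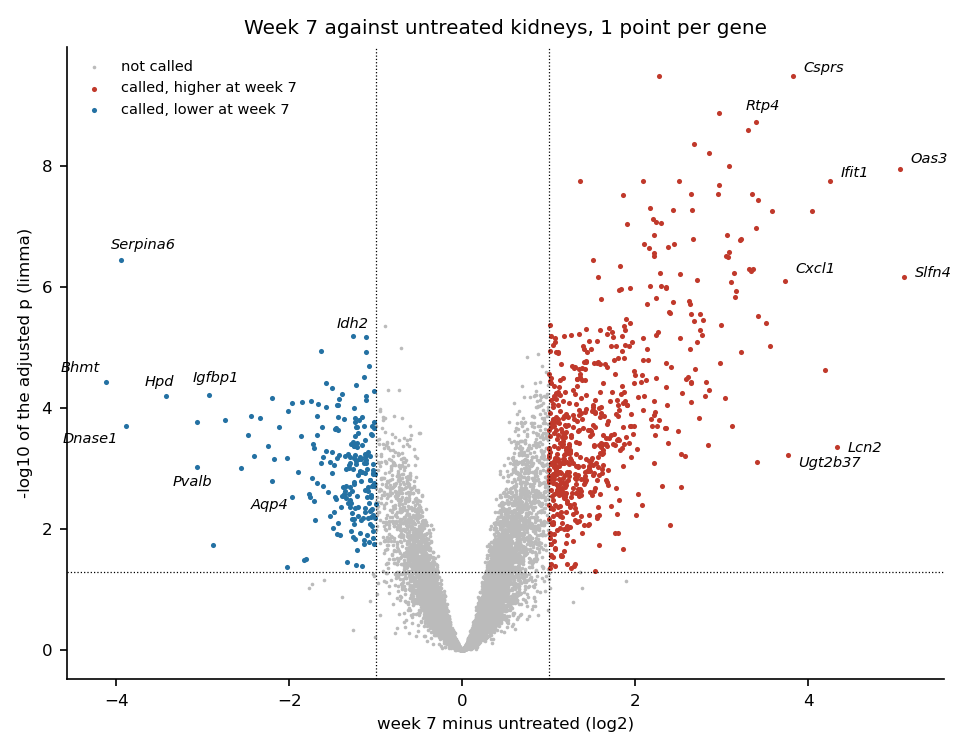
Change at week 7 (horizontal axis, log2 of week 7 minus untreated) against -log10 of limma's adjusted p (vertical axis) for 17097 genes, 5 week 7 and 3 untreated kidneys, with dotted lines at a 2-fold change and at an adjusted p of 0.05. The 609 called rises reach further up and out (Oas3 at 5.06, Slfn4 at 5.11) than the 208 called falls (Bhmt at -4.11).

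One kidney stood apart before any gene is described. Week 7 replicate 4 shared the rise of interferon and macrophage genes with the other 4, but most of its tubule genes lay near the untreated level. Lcn2, a secreted iron-carrier protein that injured tubules release, was at 4.37, 3.78 and 3.75 in the untreated kidneys and 9.55, 9.93, 8.53, 4.30 and 9.21 in the week 7 kidneys, given here and below in the order of the replicate numbers. Dnase1, a secreted nuclease that digests extracellular DNA, was at 11.67, 11.90 and 11.49 in the untreated kidneys and 6.53, 6.11, 7.76, 11.24 and 7.33 in the week 7 kidneys. In both genes replicate 4 lay beside the untreated kidneys and the other 4 lay far from them.

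The genes called without a given kidney were then read in that kidney, an addition chosen after the data had been seen. Of the 321 genes called downward without replicate 4, it lay below all untreated kidneys in 156 and more than 2-fold below their mean in 10. Its median change over the 321 genes was -0.19, where that of the other 4 kidneys was -1.33. Of the 757 genes called upward without it, it lay above all untreated kidneys in 649, with a median of 0.70 against 1.44. For each of the other 4 kidneys the corresponding falls numbered 170 to 214, and that kidney lay below all untreated kidneys in 167 to 210 of them, with medians between -1.74 and -1.16. These readings share the untreated kidneys and are a description. With replicate 4 left out, called rises went from 609 to 757 and called falls from 208 to 321.

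**Figure D2:**
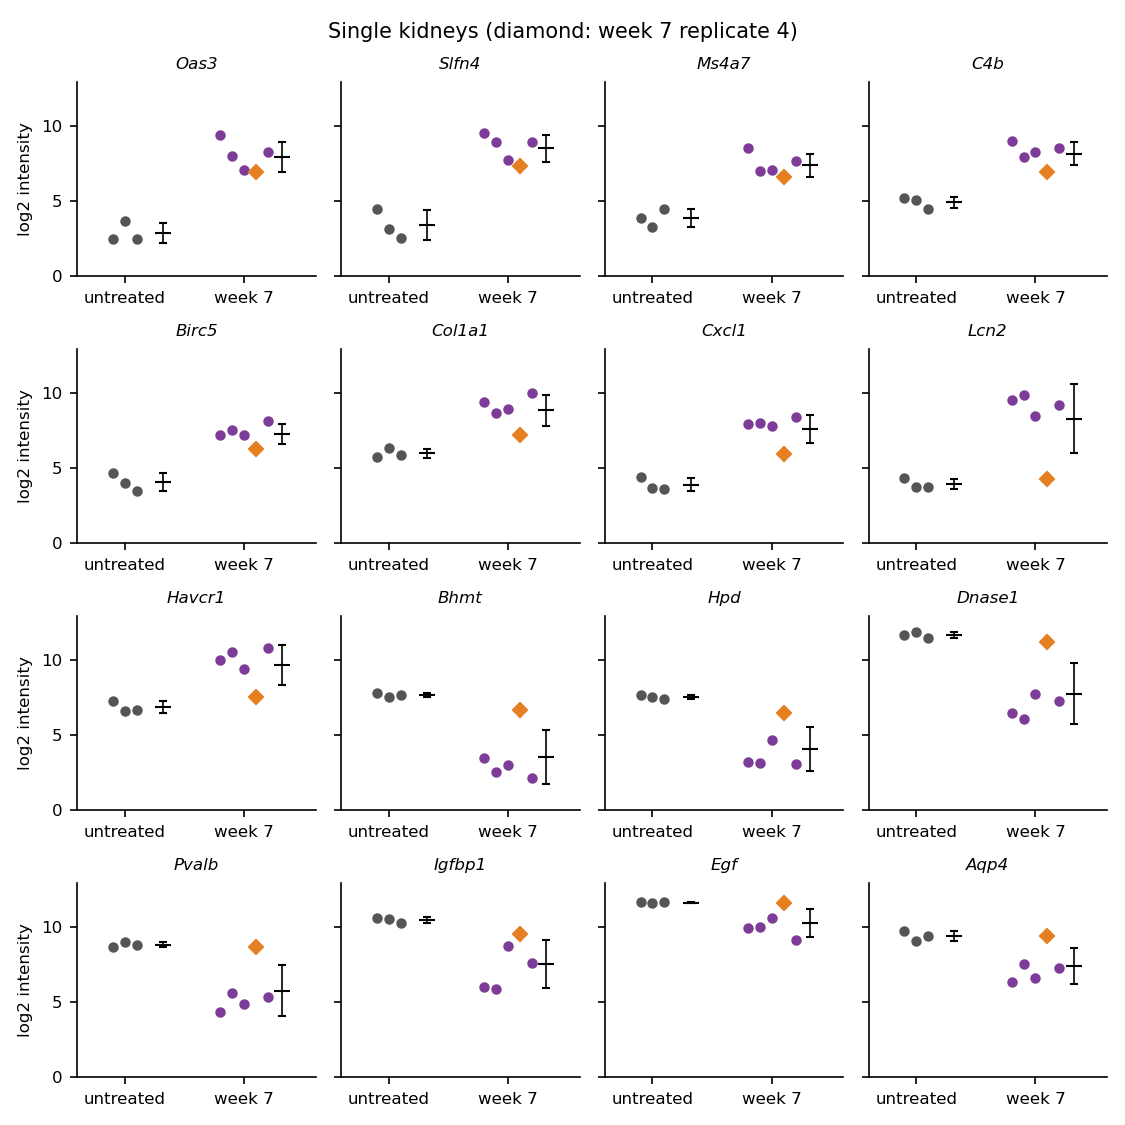
Log2 intensity (vertical axis) of 16 genes in each of 3 untreated kidneys (grey) and 5 week 7 kidneys (purple, with replicate 4 as an orange diamond), and the mean ± SD of each group at the right of its points. Replicate 4 lies with the other treated kidneys for Oas3, Slfn4 and Ms4a7 and near the untreated ones for Lcn2, Dnase1, Pvalb, Egf and Aqp4.

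Interferon-stimulated genes were high in every treated kidney. All 32 measured members of this list rose and were called, with a median change of 2.42, where 3.56% of all genes were called upward. In each the 5 week 7 kidneys lay above the 3 untreated ones, as they did in 11.8% of all genes. All 12 measured guanylate-binding and immunity-related GTPases, which attack the vacuoles of intracellular microbes, rose as well (median 2.67). Oas3, an enzyme that senses double-stranded RNA and activates RNA decay, was at 2.50, 3.69 and 2.49 in the untreated kidneys and 9.44, 8.02, 7.08, 6.99 and 8.27 in the week 7 kidneys. That made a rise of 5.06 (SE 0.47, adjusted p = 1.15e-08). Oasl2, a relative of it, was at 3.28, 3.38 and 3.67 in the untreated kidneys and 8.35, 7.95, 7.0, 6.28 and 7.89 in the week 7 kidneys (rise 4.05, SE 0.42, adjusted p = 5.67e-08). In both genes replicate 1 was the highest and replicate 4 the lowest of the treated kidneys.

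Ifit1, which binds foreign RNA, was at 6.87, 5.31 and 4.15 in the untreated kidneys and 10.44, 9.93, 9.25, 8.81 and 10.08 in the week 7 kidneys, a rise of 4.26 (SE 0.41, adjusted p = 1.81e-08). The untreated kidneys differed among themselves here, with a rise of 4.97 when untreated replicate 1 was left out and 3.61 when untreated replicate 3 was. Usp18, a brake on the interferon receptor, rose by 3.42 (SE 0.35, adjusted p = 3.72e-08), Rtp4 by 3.40 (SE 0.28, adjusted p = 1.93e-09) and the transcription factor Irf7, itself an amplifier of the response, by 3.37 (SE 0.40, adjusted p = 5.18e-07). Among the GTPases Tgtp1 rose by 3.43 (SE 0.45, adjusted p = 3.06e-06), Gbp10 by 3.34 (SE 0.39, adjusted p = 5.42e-07), Irgm1 by 2.96 (SE 0.29, adjusted p = 2.97e-08) and Igtp by 2.68 (SE 0.35, adjusted p = 3.69e-06).

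Promoter sequence is shown for these genes because they moved together. RefSeq windows of 300 bases (GRCm38.p6, 250 before to 50 after the start site) were searched on both strands for the core letters of the interferon-stimulated response element, GAAANNGAAA, with overlapping matches counted. Of 32851 windows of all genes, 1131 held it (3.44%). It stood in 11 of 27 windows of interferon-stimulated genes (40.7%, 22 of the 32 genes matched) and in 7 of 9 windows of the GTPases (77.8%, 8 of 12 genes matched). Printed here are the 150 bases before the start site of 4 of them, 5′ to 3′ on the strand of the gene, with the matched letters in capitals. The stretches lie at chr5:120777660-120777809, minus strand (Oas3), chr19:34640739-34640888, plus strand (Ifit1), chr11:48992247-48992396, minus strand (Tgtp1) and chr11:48871421-48871570, minus strand (Irgm1). Ifit1 holds the element on the opposite strand in 2 places, and the 2 matches of Irgm1 overlap. The 4 genes were chosen from those with a match in this stretch. A match describes these letters only and does not show that a factor was bound.
Oas3: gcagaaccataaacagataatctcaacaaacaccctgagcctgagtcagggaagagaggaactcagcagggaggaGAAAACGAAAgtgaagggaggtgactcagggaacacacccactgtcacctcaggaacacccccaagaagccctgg
Ifit1: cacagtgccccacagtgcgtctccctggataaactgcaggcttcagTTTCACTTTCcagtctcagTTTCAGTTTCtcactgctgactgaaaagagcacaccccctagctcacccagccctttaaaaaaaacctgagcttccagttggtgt
Tgtp1: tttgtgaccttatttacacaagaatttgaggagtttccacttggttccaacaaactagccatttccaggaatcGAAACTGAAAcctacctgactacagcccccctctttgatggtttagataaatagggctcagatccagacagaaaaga
Irgm1: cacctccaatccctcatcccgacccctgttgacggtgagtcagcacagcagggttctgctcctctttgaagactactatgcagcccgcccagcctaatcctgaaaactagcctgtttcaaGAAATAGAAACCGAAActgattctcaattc

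Slfn4, a Schlafen family member expressed by myeloid cells, was among the largest rises. It was at 4.51, 3.16 and 2.60 in the untreated kidneys and 9.54, 8.99, 7.79, 7.38 and 8.98 in the week 7 kidneys, a rise of 5.11 (SE 0.61, adjusted p = 7.02e-07). All treated kidneys lay above all untreated ones, as the choice of the largest rises required. Its untreated values, like those of Oas3, lay below a log2 intensity of 5, the limit under which a probe set counts as dim here, so the order of these rises is not exact. Of the 7 Schlafen genes measured, 3 rose, Slfn4, Slfn1 by 2.64 (SE 0.34, adjusted p = 1.90e-06) and Slfn2 by 1.20 (SE 0.33, adjusted p = 0.00962), and the family median was 0.46. The call of Slfn2 was lost without untreated replicate 2 (0.85, adjusted p = 0.108) or in a model of the 2 groups (1.20, adjusted p = 0.0953). Csprs, related to a nuclear body protein, rose by 3.82 (SE 0.29, adjusted p = 3.30e-10) with the smallest p among the 15 largest rises. Its dimmer probe sets rose by less, 0.85 (adjusted p = 0.00495) and 0.60 (adjusted p = 0.00526).

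Sensors of nucleic acid rose in part. Of the 18 measured sensors and Toll-like receptors 12 rose and none fell (median 1.04). Ifi204, a DNA sensor of the interferon-inducible p200 family, rose by 2.64 (SE 0.37, adjusted p = 1.06e-05), with replicate 4 level with the highest untreated kidney. The RNA sensor Ifih1 was at 6.48, 6.04 and 5.43 in the untreated kidneys and 8.83, 8.33, 7.66, 7.60 and 8.60 in the week 7 kidneys, a rise of 2.22 (SE 0.25, adjusted p = 3.10e-07) with no overlap between the groups. Dhx58 rose by 2.35 (SE 0.29, adjusted p = 1.02e-06) and Zbp1, a sensor that can trigger cell death, by 2.14 (SE 0.30, adjusted p = 1.06e-05). Tlr2, which detects bacterial lipoproteins, rose by 1.94 (SE 0.34, adjusted p = 1.99e-04) and the RNA receptor Tlr7 by 1.37 (SE 0.30, adjusted p = 0.00149). The DNA receptor Tlr9 showed a difference of -0.22 (adjusted p = 0.474) and Sting1, the adaptor of cytosolic DNA sensing, showed a difference of 0.58 (adjusted p = 0.0744). Without week 7 replicate 4 Sting1 passed (0.75, adjusted p = 0.0138).

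Genes of antigen presentation on MHC class I and class II were counted separately. Of 11 measured members of class I presentation and the immunoproteasome, 10 rose (median 1.25). Nlrc5, the regulator that switches on class I genes, was at 6.78, 5.95 and 5.57 in the untreated kidneys and 9.73, 8.60, 8.36, 7.94 and 8.98 in the week 7 kidneys (rise 2.62, SE 0.33, adjusted p = 1.73e-06), and all treated kidneys lay above all untreated ones. H2-K1 rose by 2.30 (SE 0.28, adjusted p = 9.86e-07) and Psmb8, a subunit of the immunoproteasome, by 2.23 (SE 0.38, adjusted p = 1.16e-04). H2-D1 was at 8.73, 8.47 and 8.53 in the untreated kidneys and 11.14, 10.58, 10.09, 9.93 and 10.65 in the week 7 kidneys, a change of 1.90 without overlap whose adjusted p was 0.0711 in the model of all 33 arrays. It passed in a model of the 2 groups (1.90, adjusted p = 0.00192), with the mean of its probe sets (1.93, adjusted p = 2.02e-04) and without dim probe sets (1.90, adjusted p = 0.0463). Of 10 class II members 5 rose and H2-Oa fell, by 0.68 (SE 0.14, adjusted p = 7.75e-04). Cd74, the invariant chain, was at 8.56, 8.61 and 9.09 in the untreated kidneys and 11.29, 9.26, 9.97, 9.10 and 10.63 in the week 7 kidneys (rise 1.30, SE 0.44, adjusted p = 0.0410), with replicate 1 the highest and replicate 4 level with the highest untreated kidney. Cd74 did not pass without any 1 of the 3 untreated kidneys or without week 7 replicate 1, 3 or 5 (adjusted p from 0.0525 to 0.133), in the beta-actin fit (1.38, adjusted p = 0.168) or in 4 further alternatives (adjusted p from 0.0558 to 0.0939). The number of class II rises moved with single kidneys. It was 1, 2 and 0 without untreated replicates 1, 2 and 3, and 1, 3, 2, 5 and 1 without week 7 replicates 1, 2, 3, 4 and 5. It was 0 in the beta-actin fit and 1 in a model of the 2 groups, both of which also lost the fall of H2-Oa.

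Complement and Fc receptor genes rose together with macrophage markers. Of 16 complement genes 12 rose (median 1.47). C4b, a component of the classical pathway, was at 5.22, 5.09 and 4.52 in the untreated kidneys and 9.02, 7.98, 8.28, 6.99 and 8.58 in the week 7 kidneys, a rise of 3.22 (SE 0.35, adjusted p = 1.65e-07). C3ar1, a receptor for a complement fragment on myeloid cells, rose by 2.09 (SE 0.30, adjusted p = 1.60e-05) and C1qa, a chain of the complex that binds antibody, by 1.88 (SE 0.31, adjusted p = 7.59e-05). In all 3 genes the groups did not overlap. Of the 7 Fc receptor genes 4 rose. Fcgr1 rose by 2.61 (SE 0.40, adjusted p = 3.12e-05), Fcgr4 by 2.52 (SE 0.35, adjusted p = 7.06e-06), the shared signalling chain Fcer1g by 1.82 (SE 0.31, adjusted p = 1.08e-04) and Fcgr3 by 1.79 (SE 0.33, adjusted p = 3.36e-04). The inhibitory receptor Fcgr2b showed a difference of -0.02 (adjusted p = 0.956).

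Of 21 macrophage and monocyte genes 16 rose (median 1.25). Ms4a7, a membrane protein of macrophages, was at 3.93, 3.31 and 4.47 in the untreated kidneys and 8.59, 7.0, 7.11, 6.66 and 7.71 in the week 7 kidneys, a rise of 3.51 (SE 0.47, adjusted p = 3.99e-06). The defining marker Adgre1 was at 2.29, 2.37 and 2.07 in the untreated kidneys and 5.46, 3.01, 4.30, 3.98 and 4.64 in the week 7 kidneys (rise 2.04, SE 0.33, adjusted p = 6.48e-05), and Cd68, a lysosomal marker of phagocytes, rose by 1.90 (SE 0.32, adjusted p = 8.97e-05). Every treated kidney lay above the untreated ones in these 3 genes. Adgre1 was dim in every kidney except week 7 replicate 1. Ms4a6c and Ms4a6d rose by 3.40 (SE 0.37, adjusted p = 1.06e-07) and 3.05 (SE 0.35, adjusted p = 3.16e-07). Csf1r, the receptor for the macrophage growth factor, showed a difference of -0.41 (adjusted p = 0.121) and Cd163 showed a difference of -0.11 (adjusted p = 0.861). Csf1r fell when week 7 replicate 4 was left out (-0.55, adjusted p = 0.0203) and when replicate 5 was (-0.52, adjusted p = 0.0483), against the direction of the list. In a model of the 2 groups 9 of the 21 rose, and 11 did in the beta-actin fit. Among 7 C-type lectins of phagocytes 4 rose, led by Clec4d (difference 2.36, SE 0.42, adjusted p = 2.17e-04) and Clec4e (difference 2.31, SE 0.51, adjusted p = 0.00193), and 3 of 5 genes of the phagocyte oxidase and nitric oxide synthase rose, led by Cybb (difference 1.47, SE 0.30, adjusted p = 9.95e-04).

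Markers of other leukocytes moved less, and the shares over all genes were 13.2% for rises and 6.83% for falls. Of 12 neutrophil genes 2 rose. Fpr2, a receptor for formylated peptides, was at 4.45, 1.96 and 2.62 in the untreated kidneys and 7.0, 6.63, 5.99, 6.90 and 6.35 in the week 7 kidneys (rise 3.57, SE 0.50, adjusted p = 9.67e-06), without overlap, and at 4.29 without untreated replicate 1. Mmp8, a neutrophil collagenase, rose by 0.35 (SE 0.12, adjusted p = 0.0428), and this rise did not pass without any 1 of the 3 untreated kidneys and without week 7 replicate 2, 3 or 5 (adjusted p from 0.0623 to 0.143). The defining granule proteins S100a8 and S100a9 showed a difference of -0.46 (adjusted p = 0.0965) and a difference of -0.35 (adjusted p = 0.412). S100a8 fell when untreated replicate 2 was left out (-0.63, adjusted p = 0.0387) and when week 7 replicate 4 was (-0.61, adjusted p = 0.0116). Of 15 T cell genes 1 rose, Cd3d by 0.62 (SE 0.22, adjusted p = 0.0460), which missed the threshold when untreated replicate 2 was left out (0.42, adjusted p = 0.257), and likewise for untreated replicate 3 and week 7 replicates 1, 2 and 5. Cd4 showed a difference of 0.02 (adjusted p = 0.943) and Cd8a showed a difference of 0.32 (adjusted p = 0.408). Of 11 genes of cytotoxic lymphocytes 3 rose, among them Nkg7 by 1.37 (SE 0.27, adjusted p = 6.37e-04). Of 8 dendritic cell genes 3 rose, led by Irf8 (difference 1.12, SE 0.23, adjusted p = 8.91e-04). In the beta-actin fit the last counts were 1 of 11 and 1 of 8.

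Plasma cell transcripts were uneven between the treated kidneys. Of 9 measured genes 4 rose (median 0.14), and 2 did in the beta-actin fit. Jchain, which joins secreted IgA and IgM, was at 4.07, 4.28 and 3.62 in the untreated kidneys and 7.63, 4.81, 7.72, 5.67 and 6.78 in the week 7 kidneys, a rise of 2.53 (SE 0.57, adjusted p = 0.00204). The immunoglobulin kappa joining segment Igkj1, which is not in this list, was at 4.20, 2.88 and 4.72 in the untreated kidneys and 8.40, 4.94, 8.66, 7.01 and 7.73 in the week 7 kidneys, a rise of 3.41 (SE 0.69, adjusted p = 7.72e-04), and 4.02 without week 7 replicate 2. In both genes replicates 1 and 3 were the highest and replicate 2 the lowest of the treated kidneys. In the beta-actin fit neither passed (Jchain 1.58, adjusted p = 0.200, Igkj1 2.84, adjusted p = 0.0563). Irf4, a factor of plasma cells that macrophages also use, rose by 1.56 (SE 0.34, adjusted p = 0.00155). No B cell gene of 11 rose, and Ebf1, an early B cell factor that stromal cells also express, fell by 0.73 (SE 0.22, adjusted p = 0.0229), which did not pass when untreated replicate 1 was left out (-0.59, adjusted p = 0.135) and when week 7 replicate 2 was (-0.56, adjusted p = 0.0812). The dimmer probe sets of Ebf1 were at -0.19 (adjusted p = 0.594) and -0.39 (adjusted p = 0.112).

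Of 27 chemokines 16 rose and none fell (median 0.86). Cxcl1, which draws neutrophils, was at 4.41, 3.71 and 3.61 in the untreated kidneys and 7.96, 8.03, 7.86, 6.0 and 8.40 in the week 7 kidneys, a rise of 3.74 (SE 0.45, adjusted p = 8.03e-07). Ccl28, made by epithelia, was at 6.18, 5.78 and 6.19 in the untreated kidneys and 8.94, 8.85, 9.16, 7.07 and 8.92 in the week 7 kidneys, a rise of 2.54 (SE 0.50, adjusted p = 5.82e-04). In both genes replicate 4 was the lowest treated kidney and still lay above the untreated ones. Ccl5, made by lymphocytes and other cells under interferon, rose by 2.25 (SE 0.40, adjusted p = 1.99e-04). Cxcl10 rose by 2.23 (SE 0.41, adjusted p = 2.79e-04), and by 2.97 without untreated replicate 1, whose level of 6.92 lay within the treated range. Ccl12, a ligand for monocytes, rose by 2.02 (SE 0.39, adjusted p = 4.84e-04), and by 2.67 without untreated replicate 1.

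Among 19 cytokine genes 6 rose, and 2 did in a model of the 2 groups. Il1rn, the interleukin-1 receptor antagonist, rose by 2.75 (SE 0.37, adjusted p = 5.09e-06) and Il33, an alarmin of injured tissue, by 2.35 (SE 0.37, adjusted p = 4.54e-05). Tnfsf13b, which encodes the B cell survival factor BAFF, rose by 1.18 (SE 0.28, adjusted p = 0.00304), and Tnf showed a difference of 0.31 (adjusted p = 0.210) and Ifng showed a difference of 0.21 (adjusted p = 0.359). In that model Tnfsf13b did not pass (1.18, adjusted p = 0.0616). Of 10 genes of leukocyte adhesion 6 rose (median 1.01). Cd44, a hyaluronan receptor, was at 5.25, 4.88 and 4.81 in the untreated kidneys and 8.82, 7.98, 7.82, 7.31 and 8.78 in the week 7 kidneys, a rise of 3.16 (SE 0.39, adjusted p = 1.20e-06), and all treated kidneys lay above the untreated ones. Icam1 and Vcam1, which leukocytes grip on endothelium, rose by 1.81 (SE 0.26, adjusted p = 1.49e-05) and 1.80 (SE 0.30, adjusted p = 8.99e-05).

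Genes of tubular injury rose in 4 of the 5 treated kidneys to a far higher level than in the other. Of 19 measured members 15 rose (median 1.62). The rise of Lcn2 was 4.34 (SE 0.83, adjusted p = 4.47e-04), and 5.34 without replicate 4. Havcr1, the kidney injury molecule of the proximal tubule, was at 7.33, 6.64 and 6.69 in the untreated kidneys and 10.06, 10.59, 9.45, 7.54 and 10.83 in the week 7 kidneys, a rise of 2.81 (SE 0.45, adjusted p = 6.30e-05). Anxa2 rose by 2.0 (SE 0.30, adjusted p = 2.88e-05), the cell cycle inhibitor Cdkn1a by 1.96 (SE 0.35, adjusted p = 1.99e-04) and Krt18, a keratin of simple epithelia, by 1.95 (SE 0.33, adjusted p = 1.24e-04). Averaged over the list, the treated kidneys lay 1.82, 2.05, 1.24, 0.35 and 2.04 above the untreated mean, and replicate 4 was the lowest.

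Further large rises were lowest in replicate 4. Ugt2b37, a glucuronosyltransferase, was at 3.51, 2.60 and 1.78 in the untreated kidneys and 7.11, 7.10, 5.83, 3.82 and 8.15 in the week 7 kidneys (rise 3.77, SE 0.74, adjusted p = 5.95e-04), and its rise was 4.42 without replicate 4. Clca3a2, a regulator of chloride channels, was at 1.33, 2.39 and 3.09 in the untreated kidneys and 6.12, 5.88, 6.12, 4.64 and 6.50 in the week 7 kidneys (rise 3.58, SE 0.37, adjusted p = 5.67e-08). Aoc1, which degrades histamine and polyamines, was at 5.57, 5.61 and 5.53 in the untreated kidneys and 9.03, 8.35, 8.12, 6.69 and 9.32 in the week 7 kidneys (rise 2.74, SE 0.47, adjusted p = 1.46e-04). Replicate 4 was the lowest treated kidney in these 3 genes. The groups did not overlap in any of them, which the choice of the largest rises fixed for Ugt2b37 and Clca3a2. Of 18 acute phase genes 6 rose, led by the copper oxidase Cp (difference 2.78, SE 0.38, adjusted p = 6.22e-06) and the fibrinogen chains Fgg (difference 2.27, SE 0.40, adjusted p = 1.60e-04) and Fga (difference 1.85, SE 0.36, adjusted p = 4.65e-04). Their count was 9 without replicate 4, 3 when untreated replicate 3 or week 7 replicate 2 was left out, and 2 in a model of the 2 groups, where Fga did not pass (1.85, adjusted p = 0.0580).

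**Figure D3:**
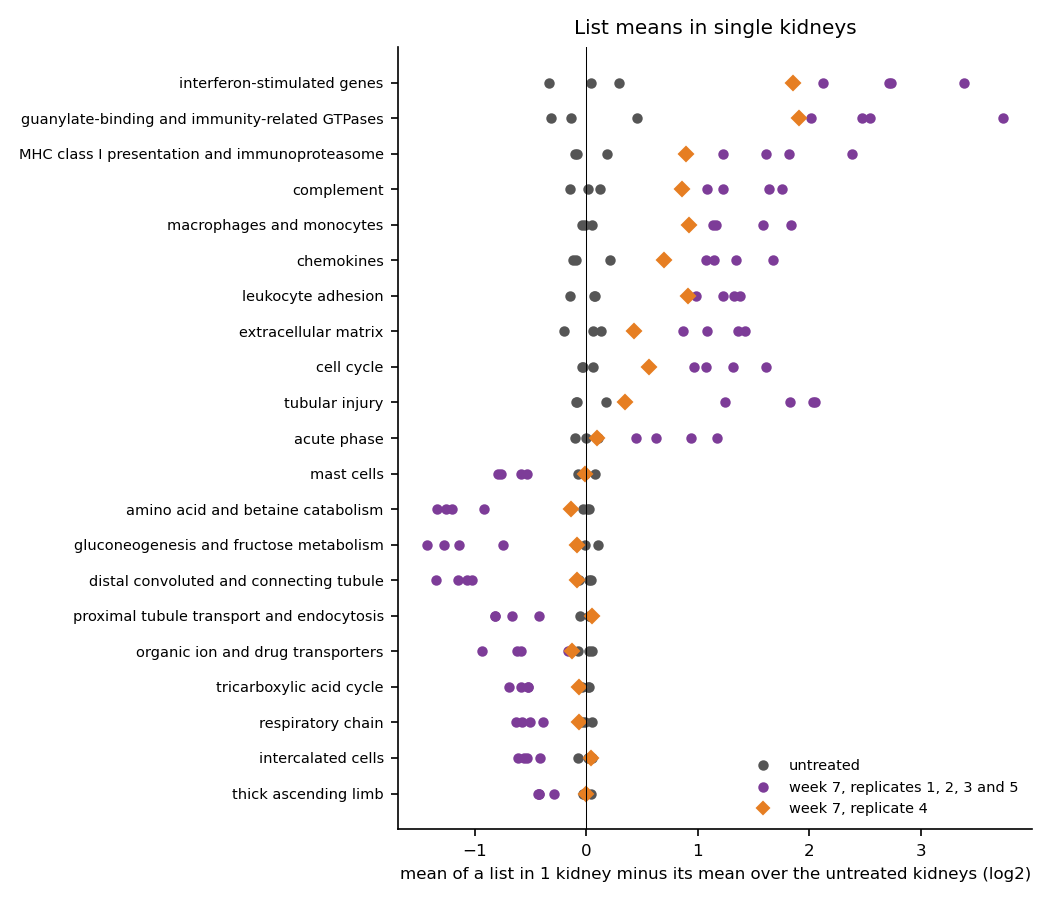
Mean of each of 21 gene lists in single kidneys (horizontal axis, log2, minus the mean of the 3 untreated kidneys). For interferon-stimulated genes all 5 week 7 kidneys lie between 1.85 and 3.38, while for amino acid and betaine catabolism week 7 replicate 4 (orange) lies at -0.14 and the other 4 between -1.34 and -0.91.

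Matrix genes rose broadly. Of 30 measured genes of the extracellular matrix 18 rose and none fell (median 0.96). Col1a1, a chain of the main fibrillar collagen, was at 5.77, 6.35 and 5.91 in the untreated kidneys and 9.46, 8.69, 8.97, 7.20 and 10.001 in the week 7 kidneys, a rise of 2.85 (SE 0.45, adjusted p = 5.04e-05). Col3a1 rose by 2.37 (SE 0.39, adjusted p = 9.08e-05), Col6a3 by 2.12 (SE 0.33, adjusted p = 3.46e-05), the matricellular protein Tnc by 1.89 (SE 0.35, adjusted p = 3.00e-04) and fibronectin, Fn1, by 1.67 (SE 0.37, adjusted p = 0.00169). The groups did not overlap in these 5 genes, and replicate 4 was the lowest treated kidney in each. Of 15 genes of myofibroblasts and TGF-beta signalling 8 rose, led by Tgfbi (difference 2.26, SE 0.31, adjusted p = 5.54e-06) and the filament Vim (difference 1.69, SE 0.29, adjusted p = 1.64e-04), while Tgfb1 itself showed a difference of 0.31 (adjusted p = 0.347). Among 18 matrix proteases and inhibitors 7 rose, led by the inhibitor Timp1 (difference 2.22, SE 0.45, adjusted p = 8.22e-04) and the lysosomal protease Ctss (difference 2.08, SE 0.32, adjusted p = 2.84e-05), where a model of the 2 groups gave 4.

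Of 31 measured cell cycle genes 21 rose and none fell (median 0.77), where 13.2% of all genes rose. In 19 of the 31 all treated kidneys lay above the untreated ones, as they did in 11.8% of all genes. A model of the 2 groups gave 13 rises. Birc5, which acts in cell division and blocks cell death, was at 4.71, 4.01 and 3.50 in the untreated kidneys and 7.26, 7.56, 7.22, 6.33 and 8.15 in the week 7 kidneys, a rise of 3.23 (SE 0.46, adjusted p = 1.19e-05). Prc1, a bundler of spindle microtubules, was at 4.40, 4.33 and 4.34 in the untreated kidneys and 6.85, 8.06, 6.88, 5.99 and 7.46 in the week 7 kidneys, a rise of 2.69 (SE 0.40, adjusted p = 2.25e-05). Mki67, the common marker of cycling cells, was at 4.41, 4.24 and 4.19 in the untreated kidneys and 6.02, 5.54, 6.27, 5.35 and 7.30 in the week 7 kidneys, a rise of 1.82 (SE 0.34, adjusted p = 3.33e-04). In all 3 genes the groups did not overlap and replicate 4 was the lowest treated kidney. Top2a, which untangles DNA, rose by 2.22 (SE 0.38, adjusted p = 1.32e-04) on its brightest probe set, while of its dimmer probe sets one fell by 0.39 (adjusted p = 0.0288) and the other was at 0.01 (adjusted p = 0.968).

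The promoters of the cell cycle genes were searched for CCAAT, the box bound by the factor NF-Y, and for TTTGAA, the letters of the cell cycle genes homology region, on both strands. CCAAT stood in 24 of 28 windows of the list (85.7%, 26 of the 31 genes matched) and in 12289 of all 32851 windows (37.4%). TTTGAA stood in 14 of the 28 and in 5878 of all windows (17.9%). Shown are the 150 bases before the start of Prc1 (chr7:80294326-80294475, plus strand), Top2a (chr11:99024190-99024339, minus strand) and Mki67 (chr7:135716380-135716529, minus strand) in GRCm38.p6, with both motifs in capitals on either strand. Top2a holds 4 CCAAT boxes and 1 TTTGAA in this stretch, Mki67 holds 1 and 2, and Prc1 holds 1 of each. They were chosen in order of rise among members with a match in this stretch, and Birc5 was not among those printed.
Prc1: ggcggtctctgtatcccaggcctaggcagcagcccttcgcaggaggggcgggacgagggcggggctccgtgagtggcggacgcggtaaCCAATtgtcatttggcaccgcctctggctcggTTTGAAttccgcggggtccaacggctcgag
Top2a: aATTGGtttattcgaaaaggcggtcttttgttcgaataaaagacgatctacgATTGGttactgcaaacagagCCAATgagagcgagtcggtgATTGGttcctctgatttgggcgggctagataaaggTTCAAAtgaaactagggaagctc
Mki67: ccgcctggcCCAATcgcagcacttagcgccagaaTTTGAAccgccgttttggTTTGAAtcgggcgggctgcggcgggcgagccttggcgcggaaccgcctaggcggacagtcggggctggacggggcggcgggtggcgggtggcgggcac

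Of 19 cell death genes 12 rose (median 0.66), and 7 did in a model of the 2 groups. Casp4, an inflammatory caspase that senses bacterial lipopolysaccharide, was at 4.27, 4.17 and 3.72 in the untreated kidneys and 8.03, 6.75, 6.89, 6.27 and 7.69 in the week 7 kidneys, a rise of 3.07 (SE 0.33, adjusted p = 1.39e-07), without overlap. Mlkl, the executor of necroptosis, rose by 1.88 (SE 0.25, adjusted p = 5.24e-06) and the inhibitor Birc3 by 1.42 (SE 0.21, adjusted p = 2.29e-05). Of 20 immediate early genes 6 rose, led by Egr2 (difference 2.65, SE 0.41, adjusted p = 3.78e-05) and Ier3 (difference 1.49, SE 0.21, adjusted p = 1.07e-05), while Fos showed a difference of -0.06 (adjusted p = 0.958) and Jun showed a difference of 0.52 (adjusted p = 0.117). Jun passed in the beta-actin fit (1.14, adjusted p = 0.00627) and without week 7 replicate 4 (0.63, adjusted p = 0.0486). Of 9 nucleases of nucleic acid clearance 3 rose, led by Samhd1 (difference 1.33, SE 0.23, adjusted p = 1.66e-04) and the RNA editor Adar (difference 0.94, SE 0.17, adjusted p = 3.25e-04), and Dnase1 fell by 3.89 (SE 0.69, adjusted p = 1.99e-04), by 4.75 without replicate 4.

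**Figure D4:**
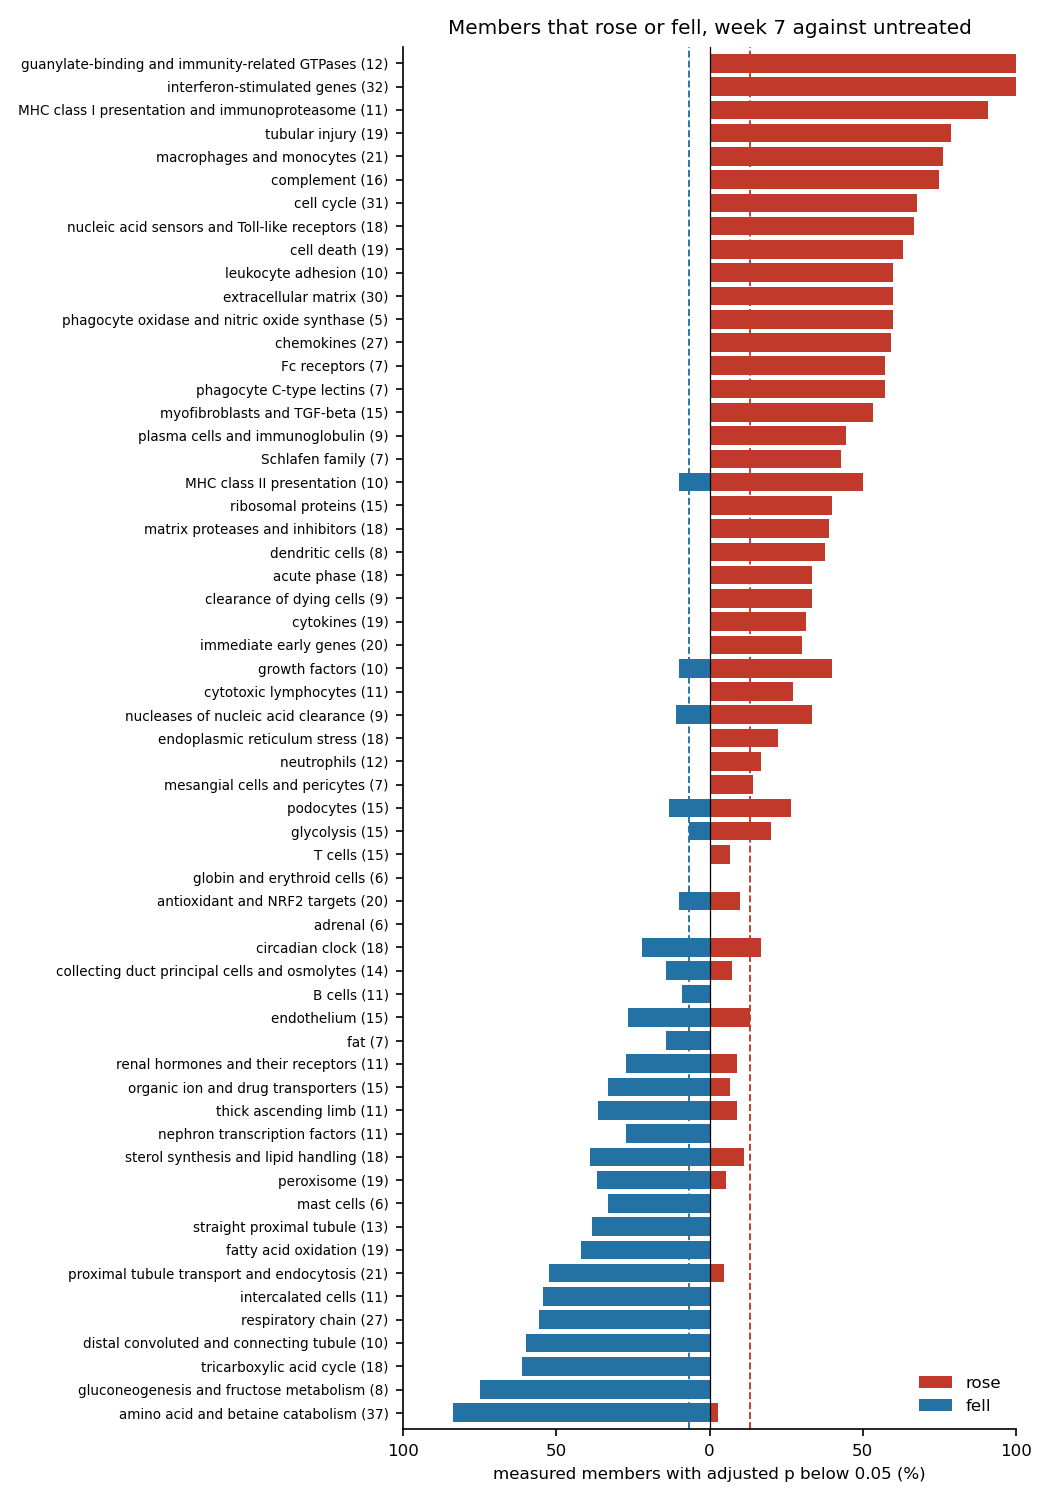
Share of measured members of 59 gene lists (number in brackets) that rose (red, to the right) or fell (blue, to the left) at week 7, in percent of members with an adjusted p below 0.05. Dashed lines mark the shares over all genes, 13.2% up and 6.83% down. All members of the interferon-stimulated and GTPase lists rose, and 31 of 37 genes of amino acid and betaine catabolism fell.

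Enzymes of amino acid breakdown formed the list with the highest share of falls. Of 37 measured members 31 fell and 1 rose (median -0.88). Bhmt, which remethylates homocysteine with betaine, was at 7.85, 7.57 and 7.67 in the untreated kidneys and 3.51, 2.58, 3.0, 6.67 and 2.16 in the week 7 kidneys. It fell by 4.11 (SE 0.64, adjusted p = 3.76e-05), and by 4.89 without replicate 4. Of its week 7 values 4 were dim, so its order among the largest falls is not exact. Hpd, an enzyme of tyrosine breakdown, was at 7.69, 7.54 and 7.41 in the untreated kidneys and 3.20, 3.17, 4.68, 6.46 and 3.06 in the week 7 kidneys, a fall of 3.43 (SE 0.55, adjusted p = 6.46e-05), or 4.02 without replicate 4. In both genes replicate 4 lay about 1 unit below the untreated kidneys and the other 4 lay far lower. Ass1, which makes the precursor of arginine, fell by 1.73 (SE 0.33, adjusted p = 3.99e-04), Haao, of tryptophan breakdown, by 1.57 (SE 0.30, adjusted p = 5.14e-04), and Bckdhb, of the branched-chain pathway, by 1.26 (SE 0.24, adjusted p = 3.64e-04). The single rise was that of Arg2, the mitochondrial arginase, by 0.89 (SE 0.26, adjusted p = 0.0184). Arg2 did not pass without untreated replicate 1 or 2 or week 7 replicate 2 or 5, with adjusted p between 0.0516 and 0.0852. In a model of the 2 groups 13 members fell, and without replicate 4 there were 35. The beta-actin fit and the fit with globin signal as a covariate each gave 26.

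Part of the genes of glucose synthesis and of the mitochondrial lists fell. Of 8 genes of gluconeogenesis and fructose metabolism 6 fell (median -1.24), and 2 did in a model of the 2 groups. Pcx, pyruvate carboxylase, was at 6.55, 7.18 and 6.35 in the untreated kidneys and 4.17, 3.43, 5.19, 6.25 and 4.91 in the week 7 kidneys, a fall of 1.90 (SE 0.40, adjusted p = 0.00114), and Khk, which traps fructose, was at 10.54, 10.65 and 10.73 in the untreated kidneys and 9.10, 8.80, 9.24, 10.27 and 8.64 in the week 7 kidneys, a fall of 1.43 (SE 0.25, adjusted p = 1.41e-04). Neither gene overlapped between the groups, and replicate 4 lay nearest the untreated kidneys. G6pc, glucose-6-phosphatase, fell by 1.55 (SE 0.35, adjusted p = 0.00242), but not in a model of the 2 groups (-1.55, adjusted p = 0.0982). Of 18 genes of the tricarboxylic acid cycle 11 fell (median -0.51), led by Idh2, which was at 8.94, 9.03 and 9.27 in the untreated kidneys and 7.76, 7.65, 7.99, 8.49 and 7.93 in the week 7 kidneys (fall 1.12, SE 0.15, adjusted p = 6.68e-06). Without untreated replicate 1 the count was 6. A dimmer probe set of Idh2 showed a difference of -0.12 (adjusted p = 0.513). Of 27 respiratory chain genes 15 fell (median -0.44), led by Ndufs7 of complex I (difference -1.04, SE 0.19, adjusted p = 2.83e-04), and of 19 genes of fatty acid oxidation 8 fell (median -0.33), led by Acaa1b (difference -1.28, SE 0.24, adjusted p = 3.91e-04) and Acaa2 (difference -1.16, SE 0.20, adjusted p = 1.41e-04). In the beta-actin fit these counts were 7, 7 and 4, and in a model of the 2 groups 4, 3 and 4. The 15 glycolysis genes had a median of 0.01.

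Transport genes of the proximal tubule fell in part. Of 21 genes of transport and endocytosis 11 fell and 1 rose (median -0.43). Slc34a3, a phosphate transporter, was at 6.30, 6.32 and 6.53 in the untreated kidneys and 4.78, 4.27, 4.48, 6.13 and 4.36 in the week 7 kidneys, a fall of 1.58 (SE 0.26, adjusted p = 9.51e-05), and the glucose transporter Slc5a2 fell by 1.05 (SE 0.19, adjusted p = 1.99e-04). In Slc34a3 replicate 4 lay just under the untreated kidneys and the other 4 well below them. Slc6a19, a carrier of neutral amino acids, fell by 1.28 (SE 0.32, adjusted p = 0.00551), though not in a model of the 2 groups (-1.28, adjusted p = 0.0924), where 2 of the 21 genes fell. The falls numbered 7 without week 7 replicate 1 and 6 in the beta-actin fit. The single rise was that of the sulfate transporter Slc13a1 (difference 0.55, SE 0.17, adjusted p = 0.0231), and it did not pass without any of the 3 untreated kidneys or without week 7 replicate 3 or 5, with adjusted p between 0.0548 and 0.0730.

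Organic ion carriers stood among the largest falls. Slc22a22 was at 8.96, 9.92 and 9.10 in the untreated kidneys and 5.73, 5.15, 7.01, 8.95 and 4.46 in the week 7 kidneys, a fall of 3.06 (SE 0.54, adjusted p = 1.74e-04), or 3.73 without replicate 4. Slc22a27 was at 10.48, 10.42 and 10.51 in the untreated kidneys and 7.84, 6.25, 7.30, 10.04 and 7.17 in the week 7 kidneys, a fall of 2.75 (SE 0.48, adjusted p = 1.57e-04). Both belong to a family of organic anion and cation carriers, and in both replicate 4 lay close to the untreated kidneys. Of the 15 carriers listed 5 fell and 1 rose (median -0.51), and without replicate 4 there were 8 falls. The fall of Slc22a4 was 1.24 (SE 0.23, adjusted p = 2.90e-04), that of the urate carrier Slc22a12 was 1.20 (SE 0.26, adjusted p = 0.00126), and the rise was that of the drug efflux pump Abcb1a (difference 1.41, SE 0.20, adjusted p = 1.06e-05) with no overlap. Of 13 genes of the straight proximal tubule 5 fell, with 3 falls without untreated replicate 3 or week 7 replicate 5 and none in a model of the 2 groups.

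Serpina6, which carries corticosteroids in blood, was at 7.61, 7.33 and 7.64 in the untreated kidneys and 2.87, 3.39, 2.82, 4.93 and 3.90 in the week 7 kidneys, a fall of 3.94 (SE 0.45, adjusted p = 3.56e-07). Here replicate 4 lay more than 2 units below the untreated kidneys. Igfbp1, which binds insulin-like growth factors, was at 10.63, 10.56 and 10.28 in the untreated kidneys and 6.02, 5.87, 8.76, 9.54 and 7.63 in the week 7 kidneys, a fall of 2.93 (SE 0.47, adjusted p = 6.02e-05). Cyp2d26 fell by 2.56 (SE 0.53, adjusted p = 9.76e-04), and by 1.94 without week 7 replicate 2, with an adjusted p of 0.0701 in a model of the 2 groups. Cndp1, a dipeptidase, fell by 2.34 (SE 0.41, adjusted p = 1.47e-04), Slc16a4 by 2.20 (SE 0.36, adjusted p = 6.83e-05) and Ido2, a tryptophan-degrading enzyme, by 2.18 (SE 0.44, adjusted p = 7.05e-04).

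Beyond the proximal tubule, 6 of 10 genes of the distal convoluted and connecting tubule fell (median -0.81), and 3 did in a model of the 2 groups. Pvalb, a calcium-binding protein of the early distal convoluted tubule, was at 8.67, 9.02 and 8.82 in the untreated kidneys and 4.36, 5.62, 4.88, 8.67 and 5.36 in the week 7 kidneys, a fall of 3.06 (SE 0.63, adjusted p = 9.58e-04), or 3.79 without replicate 4. Calb1, which buffers calcium in the same region, was at 10.26, 10.03 and 9.95 in the untreated kidneys and 8.95, 8.69, 8.62, 9.54 and 8.48 in the week 7 kidneys, a fall of 1.22 (SE 0.23, adjusted p = 3.73e-04). The thiazide-sensitive cotransporter Slc12a3 fell by 0.95 (SE 0.19, adjusted p = 9.03e-04). Replicate 4 lay level with the untreated kidneys for Pvalb and Slc12a3 and below them for Calb1. Of 11 intercalated cell genes 6 fell (median -0.49), led by the anion exchanger Slc4a1 (difference -1.34, SE 0.30, adjusted p = 0.00195). That count was 1 in the beta-actin fit, where Slc4a1 did not pass (-1.22, adjusted p = 0.0601), 3 with globin signal as a covariate, 3 without untreated replicate 2 and 0 in a model of the 2 groups.

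The thick ascending limb had falls in part of its genes, and the shares over all genes were 13.2% for rises and 6.83% for falls. Umod, its most abundant secreted protein, was at 10.95, 10.97 and 10.77 in the untreated kidneys and 10.96, 11.10, 11.06, 11.18 and 11.06 in the week 7 kidneys, a difference of 0.18 (adjusted p = 0.175), and its cotransporter Slc12a1 showed a difference of -0.16 (adjusted p = 0.460). Egf, made by the same segment, was at 11.68, 11.61 and 11.69 in the untreated kidneys and 9.98, 10.04, 10.61, 11.65 and 9.17 in the week 7 kidneys, a fall of 1.36 (SE 0.32, adjusted p = 0.00289), and replicate 4 lay within the untreated range. Cldn16, a tight junction protein for magnesium, rose by 0.84 (SE 0.18, adjusted p = 0.00110). Of 11 measured members 4 fell and 1 rose, with 2 falls without untreated replicate 1 or 3 or week 7 replicate 5, 2 in the beta-actin fit and none in a model of the 2 groups, where Egf did not pass (-1.36, adjusted p = 0.0739). In the collecting duct 2 of 14 genes fell, Aqp4 and Slc5a3. The water channel Aqp4 was at 9.74, 9.08 and 9.42 in the untreated kidneys and 6.37, 7.58, 6.62, 9.40 and 7.29 in the week 7 kidneys, a fall of 1.96 (SE 0.46, adjusted p = 0.00292), with replicate 4 within the untreated range and an adjusted p of 0.0531 in a model of the 2 groups. Slc5a3, the inositol carrier of osmotic balance, fell by 1.39 (SE 0.22, adjusted p = 5.82e-05), and the vasopressin-regulated channel Aqp2 showed a difference of 0.10 (adjusted p = 0.750).

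Glomerular and vascular markers had small median changes, 0.15 for podocyte and -0.19 for endothelial genes. Their counts stand beside 13.2% rises and 6.83% falls over all genes. Of 15 podocyte genes 4 rose and 2 fell, and only Cd2ap, an adaptor of the slit diaphragm, was called, with a rise of 1.0 (SE 0.19, adjusted p = 4.61e-04). Nphs1, nephrin, was at 4.98, 4.87 and 4.39 in the untreated kidneys and 3.91, 3.61, 4.42, 4.69 and 4.13 in the week 7 kidneys, a fall of 0.59 (SE 0.21, adjusted p = 0.0489), and Wt1 showed a difference of -0.06 (adjusted p = 0.862). The fall of Nphs1 missed the threshold when untreated replicate 1 was left out (-0.48, adjusted p = 0.206), without untreated replicate 2 (-0.53, adjusted p = 0.144), without any of week 7 replicates 1, 2 and 5, and with 5 further alternatives. The podocyte falls were 0 or 1 without each kidney except week 7 replicates 3 and 4, and the rises 1 or 2 without untreated replicate 1 or 2 or week 7 replicate 1. Of 15 endothelial genes 4 fell and 2 rose, and there were 0 rises when untreated replicate 1 or week 7 replicate 2 was left out, and 1 when week 7 replicate 5 was. Tie1 fell by 0.91 (SE 0.20, adjusted p = 0.00142) and Flt1, a receptor for the growth factor VEGF, by 0.73 (SE 0.16, adjusted p = 0.00142), both in 5 of 5 treated kidneys, and neither passed in the beta-actin fit (Tie1 -0.51, adjusted p = 0.228, Flt1 -0.44, adjusted p = 0.189). The dimmer probe sets of Flt1 did not pass (-0.22, adjusted p = 0.257, and -0.24, adjusted p = 0.336).

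Other programmes were mixed, where 13.2% of all genes rose and 6.83% fell. Of 18 genes of sterol synthesis and lipid handling 7 fell and 2 rose, with the lipid droplet coat Plin2 up by 1.22 (SE 0.24, adjusted p = 5.62e-04) and the sterol sensor Insig1 down by 1.25 (SE 0.33, adjusted p = 0.00810). Insig1 did not pass in a model of the 2 groups (-1.25, adjusted p = 0.143), where 2 of the 18 fell. The falls were 4 without untreated replicate 1, and the rises 1 without untreated replicate 3. Nfe2l2, the regulator of antioxidant genes, rose by 0.88 (SE 0.15, adjusted p = 9.27e-05), while its dimmer probe set was at 0.17 (adjusted p = 0.726). Hdc, which makes histamine and stood in the mast cell list, was at 7.81, 8.41 and 8.12 in the untreated kidneys and 5.83, 5.49, 4.79, 8.19 and 5.25 in the week 7 kidneys, a fall of 2.20 (SE 0.48, adjusted p = 0.00159) that replicate 4 did not share, while the mast cell proteases Mcpt4 and Tpsb2 showed a difference of -0.26 (adjusted p = 0.107) and a difference of -0.23 (adjusted p = 0.445). Mcpt4 fell without untreated replicate 2 (-0.40, adjusted p = 0.0151). Of 18 clock genes 3 rose (1 without untreated replicate 3) and 4 fell, with Per3 (difference -1.03, SE 0.23, adjusted p = 0.00190) and Cry1 (difference 0.87, SE 0.20, adjusted p = 0.00238). In a model of the 2 groups neither passed (Per3 -1.03, adjusted p = 0.0575, Cry1 0.87, adjusted p = 0.0595). None of the dimmer probe sets of Per3 passed (adjusted p from 0.0690 to 0.658). Hours of collection are not in the labels. The 6 adrenal and 6 globin and erythroid genes gave no rise and no fall, although 2 globin and erythroid genes fell without week 7 replicate 1 and 2 without week 7 replicate 4, and of 7 fat genes only Ucp1 fell, by 2.88 (SE 0.85, adjusted p = 0.0181). Ucp1 was at 7.89, 8.03 and 4.21 in the untreated kidneys and 3.46, 4.71, 3.60, 3.77 and 3.59 in the week 7 kidneys, so that untreated replicate 3 lay with the treated kidneys, and its call was lost without untreated replicate 1 (-2.29, adjusted p = 0.126) and without untreated replicate 2 (-2.22, adjusted p = 0.124). Leaving out untreated replicate 3 gave -4.13, adjusted p = 0.00245.

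The neighbouring collection weeks were also set against week 7 directly. Week 7 minus week 5 gave 167 called rises (0.977%) and 178 called falls (1.04%) in 17097 genes, and without a fold threshold 1027 rises (6.01%) and 945 falls (5.53%). Lcn2 rose by 4.17, SE 0.72, adjusted p = 4.32e-04 between them, Ugt2b37 by 3.38, SE 0.64, adjusted p = 0.00103 and Cxcl1 by 3.02, SE 0.39, adjusted p = 6.38e-05. The falls were led by Bhmt (-3.44, SE 0.55, adjusted p = 2.36e-04), Dnase1 (-3.34, SE 0.60, adjusted p = 6.25e-04), Hpd (-2.93, SE 0.48, adjusted p = 2.81e-04) and Igfbp1 (-2.83, SE 0.41, adjusted p = 1.32e-04). Of the tubular injury list 14 of 19 rose and of amino acid and betaine catabolism 31 of 37 fell (medians 1.13 and -0.73), beside 13 of 32 interferon-stimulated genes that rose (median 0.77). The rises of interferon-stimulated genes numbered from 3 to 25 when 1 kidney was left out, 3 without week 7 replicate 1, 5 without week 7 replicate 2 or 5 or week 5 replicate 2 or 3, and 25 without week 7 replicate 4. Without week 7 replicate 4 the called genes were 290 up and 284 down, and without week 7 replicate 5 they were 106 and 129. Without week 7 replicate 4 the difference was 5.17 for Lcn2, 4.02 for Ugt2b37, -4.21 for Bhmt, -4.20 for Dnase1 and -3.52 for Hpd.

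Blood content moved with this contrast in part of the kidneys. Mean globin signal lay between 6.56 and 7.91 in the week 5 kidneys. It was at 7.31, 4.57, 3.65, 7.61 and 4.99 in the week 7 kidneys, with replicate 4 the highest. Of 6 globin and erythroid genes 3 fell from week 5 to week 7 (median -0.57). With globin signal as a covariate 54 genes were called in each direction, and the list counts were 4 for tubular injury, 9 for amino acid and betaine catabolism and 0 for interferon-stimulated genes. In that fit Dnase1 was at -2.49 (adjusted p = 0.0564) and Ugt2b37 at 2.76 (adjusted p = 0.0576), neither of them past the threshold. The part of blood content was not tested further.

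Week 9 minus week 7 gave 12 genes with an adjusted p below 0.05, 2 of them up (0.0117%) and 10 down (0.0585%), and 1 was called in each direction (0.00585% each). Atp12a, a proton pump, rose (1.41, adjusted p = 0.0132) and Dnm3os, a non-coding transcript, fell (-1.01, adjusted p = 0.0482). In a model of the 2 weeks neither passed (adjusted p = 0.515 for both), and Dnm3os did not pass without week 7 replicate 1, 2 or 5 or week 9 replicate 1, 2 or 3 (adjusted p from 0.112 to 0.162). Cry1 fell (-0.89, adjusted p = 0.0340) after a rise from week 5 to week 7 (1.06, SE 0.17, adjusted p = 2.47e-04), and its fall did not pass without week 7 replicate 2 or 5 or week 9 replicate 1, 2 or 3 (adjusted p from 0.0791 to 0.124). The fall of Cry1 also did not pass in a model of the 2 weeks (adjusted p = 0.515). The same held with array weights, centred arrays or globin signal as a covariate (adjusted p from 0.0764 to 0.183). In this contrast Lcn2 was at -0.69, adjusted p = 0.708, Bhmt at 1.14, adjusted p = 0.377 and Oas3 at -0.88, adjusted p = 0.358. Without week 7 replicate 4 Bhmt rose by 1.91 (adjusted p = 0.0297), and the called genes were 19 up and 6 down. Without week 7 replicate 1 or 3 or week 9 replicate 5 there were 4 called rises. A low number of calls does not show that the weeks were alike.

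Against the same untreated kidneys, the list medians of the other weeks stand beside those of week 7. For interferon-stimulated genes they were 2.51, 1.94, 2.18, 1.68, 2.42 and 1.87 at weeks 1, 2, 3, 5, 7 and 9. For tubular injury they were 0.00, -0.01, 0.09, 0.27, 1.62 and 1.34, and for amino acid and betaine catabolism -0.03, -0.04, -0.02, -0.08, -0.88 and -0.64. Macrophage and monocyte genes stood at 0.12, 0.04, 0.12, 0.57, 1.25 and 1.50. Interferon-stimulated genes were high at every collection, and the medians of the tubule lists lay near 0 up to week 5. All of these share the 3 untreated kidneys. Mice collected at later weeks were also older, so time after the virus and age cannot be told apart in this course.

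**Figure D5:**
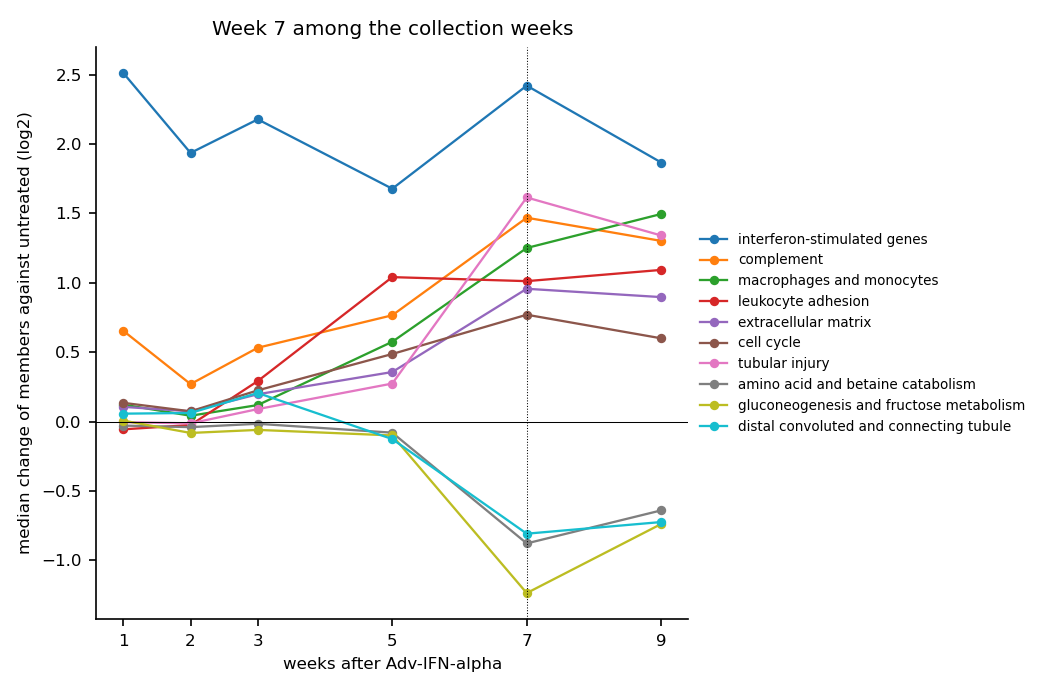
Median change of the members of 10 gene lists against the 3 untreated kidneys (vertical axis, log2) at each collection week (horizontal axis, in weeks from Adv-IFNα injection, 5 separate mice per week), with week 7 marked by a dotted line. Interferon-stimulated genes stay between 1.68 and 2.51, while tubular injury goes from 0.27 at week 5 to 1.62 at week 7.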

How the data were processed

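RNA from whole kidneys of 33 mice was extracted with Trizol and hybridised to Affymetrix HT-MG-430 PM array plates per the study's methods. Those methods do not name the labelling kit, given here as the NuGEN Ovation Biotin system. The submitters' processing notes name RMA and Partek. The deposited table holds log2 intensities that the authors had background corrected, quantile normalised and summarised per probe set by RMA, 1 column per array. That the base of the log is 2 was taken from the range of the values (0.585 to 13.9). Array medians lay between 3.97 and 4.10. Quantile normalisation gives all arrays nearly the same distribution, so a change in total RNA is not seen, and the number of arrays limits the precision.

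Of 45141 probe sets 104 control probe sets were left out of the tests, and 28898 of the other 45037 carried 1 gene symbol, 551 several and 15588 none in the platform annotation. For each of the 17097 genes the probe set brightest on average over all arrays was used, and 7180 genes have more than 1. Of the genes called at week 7 against untreated, 361 have more than 1 probe set. Another probe set passed in the same direction in 198 of them and in the opposite direction in 4. Group means of all 7 groups were fitted with limma 3.58.1 (lmFit and eBayes, R 4.3.3), which leaves 26 residual degrees of freedom, and contrasts were adjusted by the Benjamini-Hochberg method over 45037 probe sets. The code was tested on simulated data. Beta-actin and Gapdh ratios come from their 3′ and 5′ control probe sets and globin signal from 7 probe sets.

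The alternatives were a fit of only the groups compared, array weights, arrays centred on their medians, the beta-actin ratio or globin signal as a covariate, an intensity trend with robust prior, averaging all probe sets of a gene, only probe sets whose highest group mean reached 5, a replicate block, and leaving out each array. Replicate numbers did not pair the samples (correlation of same-numbered deviations from the untreated and week 7 means 0.006, -0.016 and -0.105). Of 1002 entries in 59 gene lists 877 were measured. Named are the 15 largest rises and falls without overlap, up to 6 members per list by size of change or up to 4 by level, defining markers and the leading genes of the later contrasts. The other list members named for small counts or as contrasts were chosen after their values were seen. Members and lists were chosen with earlier results of these data known. Promoter sequences are those of RefSeq (GRCm38.p6), matched by symbol. Genes without a measured probe set were not analysed here.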

Additional observations from a re-analysis of the deposited data

Results flagged for a closer look

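In 13 of the 161 genes named and 4 of the 59 lists, 1 week 7 kidney lay so far from its nearest neighbour that the gap exceeded 0.71 of the group's range, the critical value of Dixon's test for 5 samples. Chance flags about 1 in 20 groups, and over all genes 6.24% lay beyond the limit, so a single flag carries little. Replicate 4 was the lowest kidney for Ccl28 (gap 0.852 of the range), Cd2ap (0.817), Cxcl1 (0.775), Lcn2 (0.751), Il33 (0.729) and Jun (0.723). It was the highest for Slc12a1 (0.770), Slc16a4 (0.741), Slc34a3 (0.728) and Slc5a2 (0.716), and for the means of the lists for the distal convoluted and connecting tubule (0.740) and the tricarboxylic acid cycle (0.719). Replicate 1 was the highest for Cybb (0.778) and for the mean of cytotoxic lymphocytes (0.801). Replicate 2 was the lowest for Fcgr2b (0.835) and the highest for Ucp1 (0.748), and replicate 3 was the lowest for the mean of clearance of dying cells (0.757).

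By limma's test of the weeks against each other, week 7 minus week 5 had 167 called rises and 178 called falls. For week 9 minus week 7 there was 1 of each, and neither passed in a model of the 2 weeks alone, so a difference between the effects at weeks 7 and 9 is not established. Outside the named genes, 245 probe sets with no single gene name were called upward and 98 downward at week 7 against untreated.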

How the results depend on the processing

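For week 7 minus untreated, leaving out 1 array gave 541 to 757 called genes upward and 170 to 321 downward (944 to 1324 and 317 to 630 probe sets), the highest counts without week 7 replicate 4. A fit of only the 2 groups gave 127 genes and 224 probe sets downward, and 524 genes and 905 probe sets upward. It takes the spread from these 2 groups alone, and the reason for its lower counts was not tested. The beta-actin fit gave 780 genes upward and 246 downward, more than the main fit. Globin signal as a covariate gave 569 genes upward and 150 downward, fewer than the main fit. For week 7 minus week 5 the ranges were 106 to 290 upward and 129 to 284 downward, and globin signal as a covariate gave 54 in each direction. For week 9 minus week 7 the ranges were 1 to 19 upward and 0 to 6 downward. The called fall there was lost (0 falls) with array weights, with centred arrays, with either covariate, with the mean of probe sets, without dim probe sets, with the 2 groups alone and with the replicate block. Rises were 0 with the 2 groups alone and 2 with globin signal or without dim probe sets. The beta-actin difference ranged from 0.36 to 0.50 without 1 array, where 7 arrays cannot reach a p below 0.05.

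The replicate block gave 587 genes up and 218 down (1026 and 399 probe sets) for week 7 minus untreated, 168 and 177 against week 5, and 1 and 0 for week 9 minus week 7, in samples that share only a number. Of the genes named Cd3d (0.60, adjusted p = 0.0506) and Nphs1 (-0.59, adjusted p = 0.0684) no longer passed an adjusted p of 0.05, and H2-D1 passed (2.17, adjusted p = 0.0479). No gene named changed direction while past the threshold in any alternative. Low signal limits dim genes such as Adgre1 and Mmp8, which the filter on dim probe sets leaves out.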
